A study of Mus musculus with 4 samples.

Results

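The translation factors described here are the proteins that load ribosomes onto mRNA, drive the ribosome along it and release the finished chain. Members were picked out by their gene symbols. They comprised rows whose symbols begin with Eif1, Eif2s, Eif2b, Eif3, Eif4, Eif5 or Eif6, the elongation factors Eef1a1, Eef1b2, Eef1d, Eef1e1, Eef1g and Eef2, the release factors Etf1 and Gspt1, and the poly(A)-binding proteins Pabpc1 and Pabpc4. This gave 59 of the 24411 gene rows. UMIs were found for 56 of them, each in all 4 libraries. Eif3j1, Eif3j2 and Eif4e1b had no UMI in any library. The upper bound used for such a gene was 3 counts. In UMIs per 1000000 UMIs of the library (CPM) this was 1.58 and 1.70 in Mat KO replicates 1 and 2. In WT replicates 1 and 2 it was 0.942 and 0.922 CPM. The bound covers counting error only, not how reads were assigned to genes.

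The cells were mouse haematopoietic stem cells (HSC), taken from bone marrow by sorting and sequenced one cell at a time by a variant of STRT-seq, in 2 libraries of genotype Mat KO and 2 of wild type (WT). The series title concerns small nucleolar RNAs of the imprinted Dlk1-Gtl2 locus, rRNA modification and translation in these cells. The labels name the knockout only as Mat KO and give no deleted interval, strain, age, sex, treatment or number of animals for either genotype. Whether replicate libraries came from different animals is also not in the labels. The p-values between genotypes therefore reflect the spread between 2 libraries per genotype, and that spread may be technical. For comparisons within libraries, p-values reflect how the difference between classes of cells varies over the 4 libraries.

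In initiation, eIF2 brings the initiator methionyl-tRNA to the small ribosomal subunit, eIF1, eIF1A and eIF3 hold that complex ready to scan, and eIF4F binds the mRNA cap. The eIF4E-binding proteins compete with eIF4G for the cap-binding protein eIF4E, and their hold is released when mTORC1 phosphorylates them. In elongation, eEF1A delivers aminoacyl-tRNA, the eEF1B subunits recharge eEF1A with GTP, and eEF2 moves the ribosome along. HSC are known for a low rate of protein synthesis compared with their progeny.

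Cells entered the comparisons when 1000 or more genes had a UMI. This held for 44, 48, 48 and 48 of the 96 barcodes in Mat KO replicate 1, Mat KO replicate 2, WT replicate 1 and WT replicate 2, and values below are in that order. The 4 libraries used the same barcode numbers, and 44 of 48 were kept in all 4. Total UMIs were 1900319, 1768647, 3183279 and 3253608, so both WT libraries were deeper than both Mat KO libraries. The HSC markers Procr, Hlf, Mecom and Kit were each found in 17 or more cells of every library. Cells with at least 1% of UMIs in a granulocyte and monocyte, B-lymphoid, T and NK or erythroid marker list, called lineage-marked below, numbered 13, 4, 4 and 5 and held 35%, 12.9%, 5.95% and 11.9% of UMIs. Mat KO replicate 1 stood apart: the summed level of the 19 granulocyte and monocyte markers was 37007 CPM there against 6228, 7318 and 3711 CPM in the others. All 19 markers of that list were found in at least 1 library. The counts of factors between genotypes are therefore given with all kept cells, without lineage-marked cells, and after thinning every cell to 8877 UMIs. A sum over a library cannot tell apart fewer cells of a type and less RNA per cell.

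The factors took 1.83%, 1.87%, 2.10% and 2.21% of all UMIs, lower in both Mat KO libraries than in either WT library. In single cells the median share was 1.93%, 1.88%, 2.05% and 2.14%. The cells of a library ranged from 0.504% to 2.68% in Mat KO replicate 1 and from 1.02% to 2.76% in WT replicate 2, so the cells of the 2 genotypes overlapped widely. After thinning, which kept 38, 41, 46 and 44 cells and left out 6, 7, 2 and 4, the median share was 1.94%, 1.95%, 2.02% and 2.06%. Both Mat KO medians were again below both WT medians, with a smaller gap. A thinned cell held a UMI of a median of 29.5, 30, 32 and 33 factors, against 36, 37, 40.5 and 43 without thinning. Across thinned cells, Spearman's rho of the factor share with the share of 86 ribosomal protein genes was 0.372, 0.364, 0.646 and 0.514, a description over cells that share a library. With the share of cell cycle genes, rho lay between -0.18 and 0.20.

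**Figure D1:**
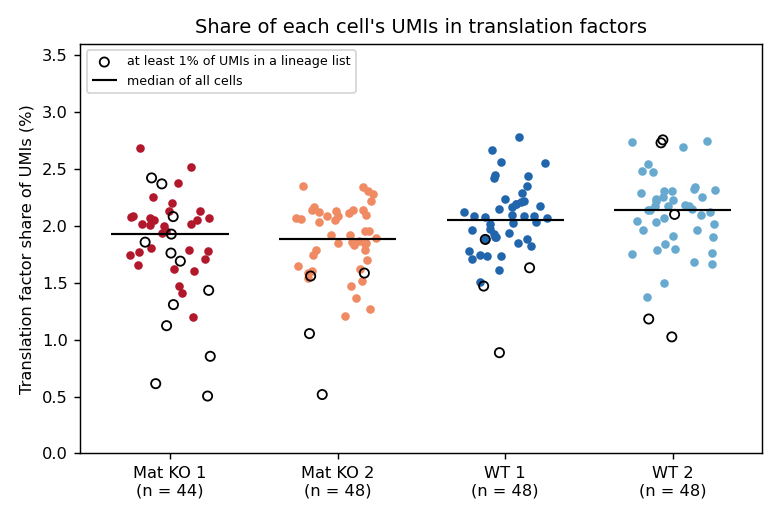
Share of a cell's UMIs that came from the translation factors (y axis, percent), for every kept cell of the 4 libraries (x axis), with lineage-marked cells as open circles. The library medians run from 1.88% to 2.14%, and the cells of all 4 libraries overlap.

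Single factors spanned a wide range of levels. UMIs here tag the 3' end of a cDNA, so CPM was not scaled by transcript length. Capture and the assignment of reads can still differ between genes, so levels of different genes compare only roughly. Eef1a1, which carries aminoacyl-tRNA to the ribosome, was the most abundant at a mean of 4069 CPM and gave 19.8% to 20.6% of the factor UMIs in every library. Pabpc1, which coats poly(A) tails, followed at 1843 CPM, Eef2 at 1294 CPM, Eif1 at 1247 CPM and Eef1b2 at 1043 CPM. Eif5a2, a paralog of Eif5a, was lowest of the detected members at 9.15 CPM. The median detected factor had 164 CPM.

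**Figure D2:**
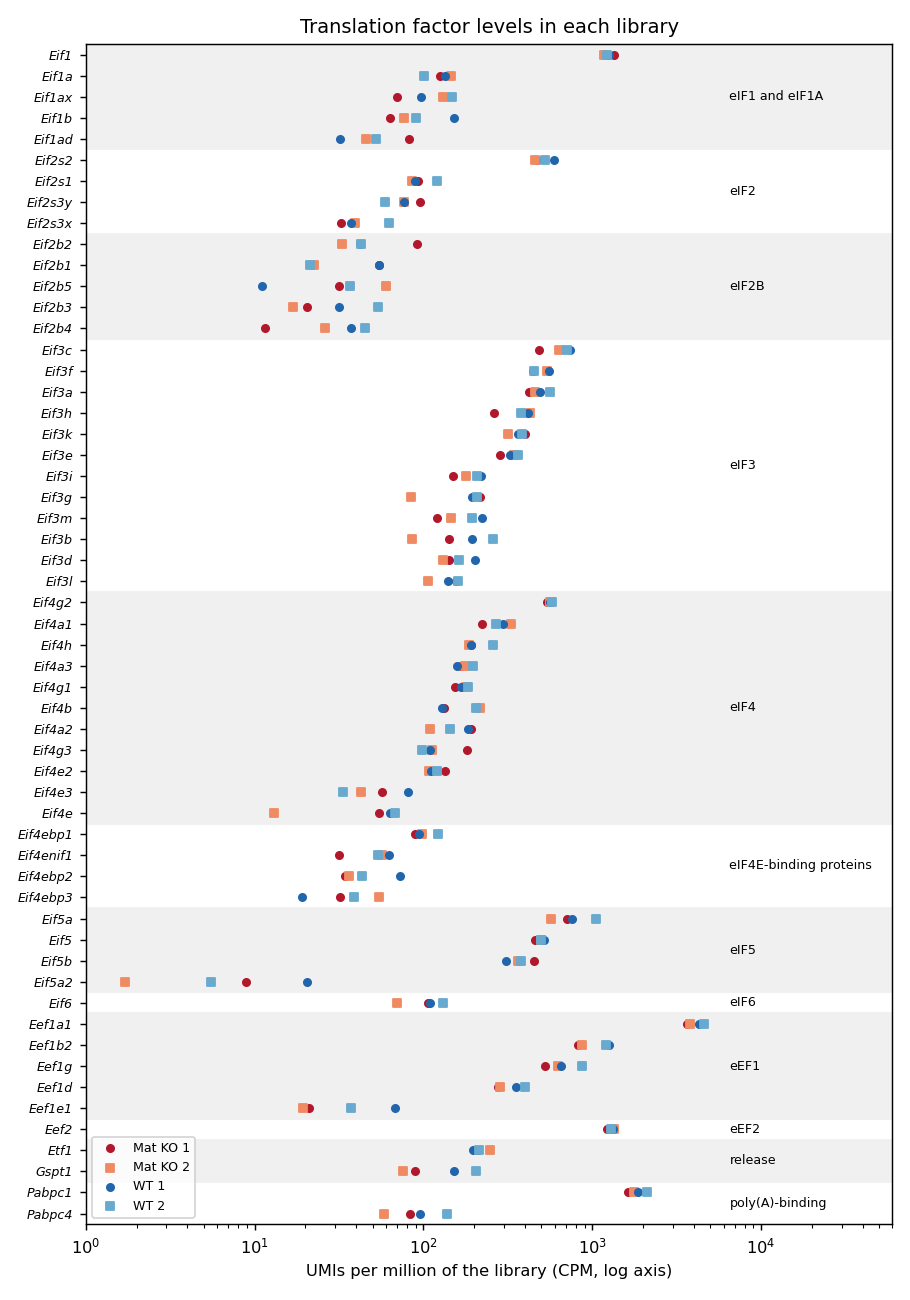
Level of each detected translation factor (CPM, log axis) in the 4 libraries, grouped by complex. Eef1a1 and Pabpc1 are highest, and the points of the 2 genotypes lie close together for most factors.

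Many mRNAs of the translation machinery start with a run of pyrimidines, the 5' terminal oligopyrimidine (TOP) motif, through which mTORC1 and LARP1 control their translation. RefSeq promoter sequences (build GRCm38.p6) were matched for 43 of the 59 members. An unbroken run of at least 8 bases, each C or T, on the gene's strand between 10 bases before and 20 after the annotated start was found in 9 of these (20.9%) and in 13.0% of the 27025 genes of that table. Such a match describes the letters only. The windows of 4 members, chosen to show the most abundant factor, both genes for the gamma subunit of eIF2 and 1 subunit of eIF3, are printed 5′ to 3′ with the run in capitals. They lie at chr9:78481705-78481734 (minus strand), chrX:94212632-94212661 (minus), chrY:1010585-1010614 (plus) and chr7:108934405-108934434 (plus), in that order.
Eef1a1: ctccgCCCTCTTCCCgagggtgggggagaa
Eif2s3x: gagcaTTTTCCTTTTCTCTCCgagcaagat
Eif2s3y: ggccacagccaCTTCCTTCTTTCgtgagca
Eif3f: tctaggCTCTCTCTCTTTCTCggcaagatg
The run began 5 bases before the annotated start in Eef1a1 and Eif2s3x and 4 before it in Eif3f. In Eif2s3y it began at base 2 after the start. RNA levels were measured here, and translation was not.

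Most translation factors had lower values in Mat KO, but no single factor passed the test. Of the 56 tested, 23 (41.1%) had both Mat KO libraries below both WT libraries, against a background of 21.3% of the 10663 genes tested. Only Eif4g3 had both Mat KO libraries above both WT libraries (1.79%, background 17.8%), and 32 overlapped. The fitted log2 fold change was below 0 for 41 of 56 (background 50.6%), with a median of -0.19 against -0.01 over all genes. At an adjusted p under 0.05, edgeR's quasi-likelihood fit called 0 factors higher (background 0.075%) and 0 lower (background 0%), and the smallest adjusted p was 0.45. DESeq2 also called 0, against 0.832% of genes higher and 0.165% lower. At an unadjusted p under 0.05, edgeR had 4 factors lower (background 3.32%) and 0 higher (background 4.5%).

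That excess was smaller after thinning, which sets every cell to the same UMI number and weight and leaves out the shallowest cells. With thinned cells, 14 of 54 tested factors (25.9%, background 20.7%) had both Mat KO libraries lower and 5 (9.26%, background 17.7%) had both higher, and 33 of 54 fold changes were below 0 (background 50.1%), with a median of -0.08. Without lineage-marked cells the counts were 19 of 56 lower (33.9%, background 21.6%) and 8 higher (14.3%, background 17%), and 36 of 56 fold changes were below 0 (background 50.7%), with a median of -0.12. edgeR called 0 factors in both. At an unadjusted p under 0.05, 4 were lower with thinned cells (background 3.67%) and 5 without lineage-marked cells (background 3.78%), and 0 were higher in either (background 4.04% and 4.06%).

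**Figure D3:**
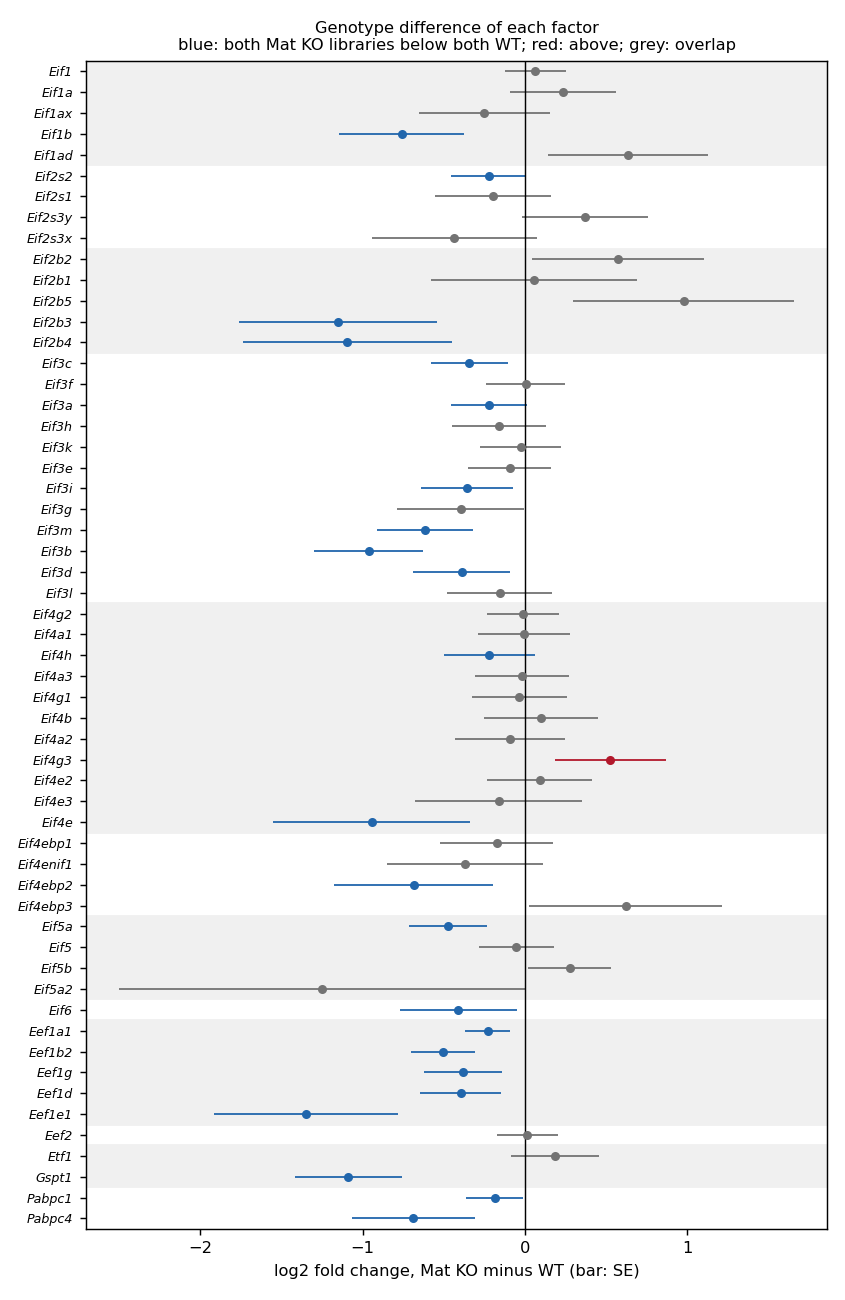
Log2 fold change of each tested factor between Mat KO and WT (edgeR), with its standard error, grouped by complex. Values lie below 0 for 41 of 56 factors, and no factor passes an adjusted p of 0.05.

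The eEF1 group, with the factors that deliver aminoacyl-tRNA and recycle its carrier, was lower in sum. Its level was 5268, 5586, 6649 and 7078 CPM, 0.791 times the WT mean in Mat KO, with both Mat KO libraries below both WT libraries. The 5 members include Eef1e1, which shares the name but is a protein of the multi-tRNA synthetase complex. Each of the 5 had both Mat KO libraries below both WT libraries, although none passed the test (background 21.3%). With thinned cells 4 of 5 did so (background 20.7%) and the log2 difference of the sum went from -0.34 to -0.23, and without lineage-marked cells 4 of 5 did so (background 21.6%) and it was -0.22. Eef1b2, an exchange subunit that recharges eEF1A, stood at 828, 874, 1263 and 1207 CPM, and every kept cell held at least 1 UMI. Its log2 fold change was -0.51 (SE 0.20, edgeR adjusted p = 0.584), and -0.29 with thinned cells. Both Mat KO values lay well below the WT values, which were close to each other.

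Eef1a1 itself stood at 3619, 3786, 4312 and 4560 CPM, lower in both Mat KO libraries, with a log2 fold change of -0.23 (SE 0.14, edgeR adjusted p = 0.734). Eef1a1 lies at chr9:78478449-78489151 on the minus strand (mm10, GENCODE). In its last 500 bases of transcript, 51.9% of 25-base words also occur in other transcripts, so part of its count may depend on how such reads were assigned. Eef1d and Eef1g, the other eEF1B subunits, had log2 fold changes of -0.40 and -0.38. Eef1e1, an auxiliary protein of the multi-tRNA synthetase complex, was low at 21.0, 19.2, 67.5 and 37.5 CPM, in 8, 10, 25 and 15 cells. Its log2 fold change of -1.35 had an SE of 0.57 (edgeR adjusted p = 0.602), and the WT libraries differed from each other by more than WT replicate 2 differed from Mat KO. eEF2, the translocase, gave no such separation: Eef2 stood at 1228, 1342, 1320 and 1286 CPM, the genotypes overlapped, and its log2 fold change was 0.01 (SE 0.19).

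The eIF3 scaffold was also lower in sum, at 3217, 3456, 4053 and 4035 CPM, 0.825 times WT, with no overlap. Both WT libraries were nearly equal and both Mat KO libraries lay below them. The log2 difference of the sum was -0.28, and -0.17 with thinned cells and -0.20 without lineage-marked cells. The 12 detected subunits were unequal, from Eif3l at a mean of 140.5 CPM to Eif3c at 641 CPM, though the assembled complex holds them in fixed proportion. Of these 12, 6 did not overlap and were lower in Mat KO (background 21.3%), and none passed the test. With thinned cells 3 of 12 did so, near the background of 20.7%, and without lineage-marked cells 5 of 12 (background 21.6%). Among the 6, Eif3a and Eif3d had log2 fold changes of -0.22 and -0.39 with all cells, and of 0.19 and 0.24 with thinned cells. Eif3b, a core subunit that contacts the ribosome, stood at 142, 85.4, 194 and 257 CPM, with a log2 fold change of -0.96 (SE 0.33, edgeR adjusted p = 0.537). Eif3m stood at 120, 146, 224 and 194 CPM (log2 fold change -0.62, adjusted p = 0.660), and Eif3c at 481, 635, 737 and 711 CPM (log2 fold change -0.34). All 3 were lowest in the Mat KO libraries, and 66.4% of the 25-base words at the end of Eif3m are shared with other transcripts, so its count is uncertain. Eif3f, a subunit with an MPN domain, did not separate the genotypes, with a log2 fold change of 0.01. Eif3j1 and Eif3j2 both had no UMI. Of the 25-base words at the end of Eif3j2, 94.7% also occur in Eif3j1. For the end of Eif3j1, 0% occur in other transcripts.

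**Figure D4:**
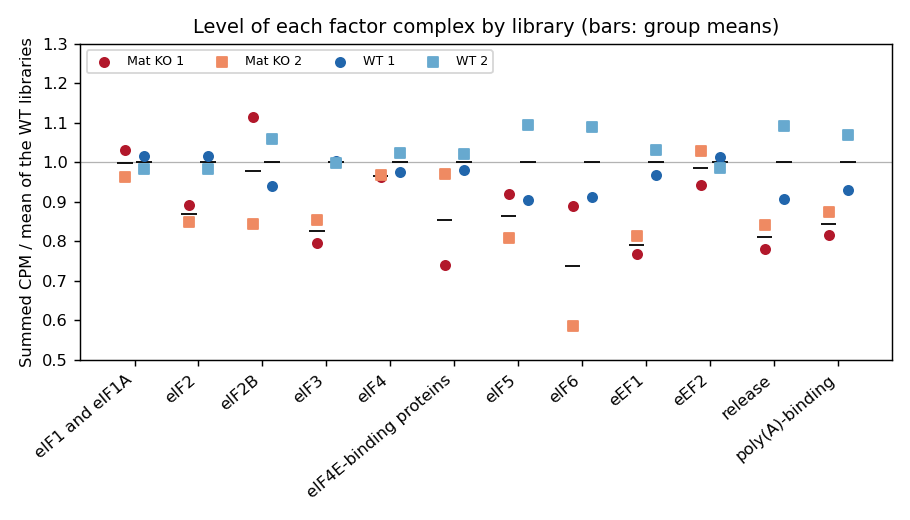
Summed CPM of each factor complex in each library, divided by the mean of the 2 WT libraries (y axis, ratio). eEF1 and eIF3 lie lowest among the large complexes, at 0.791 and 0.825 times WT in the Mat KO mean, while eEF2 and eIF1 with eIF1A lie near 1.

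Among release factors, Gspt1 (eRF3a), the GTPase that works with eRF1 at stop codons, had the smallest p of all members. It lies at chr16:11219292-11254325 on the minus strand. Its level was 88.9, 75.2, 152 and 204 CPM, with UMIs in 22, 22, 33 and 40 cells, and both Mat KO libraries lay below both WT libraries. The log2 fold change was -1.09 (SE 0.33, edgeR adjusted p = 0.45), so it did not pass. It was -1.09 both with thinned cells and without lineage-marked cells. In thinned cells, 31.6% (95% exact binomial interval 17.5% to 48.7%), 22.0% (10.6% to 37.6%), 50% (34.9% to 65.1%) and 63.6% (47.8% to 77.6%) held a Gspt1 UMI. These intervals cover counting error only. Etf1 (eRF1), its partner, stood at 210, 247, 196 and 215 CPM, with overlap and a log2 fold change of 0.19 (SE 0.27).

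The eIF2 complex, the target of the integrated stress response, gave 695, 662, 793 and 767 CPM in sum, 0.870 times WT without overlap. With thinned cells the genotypes overlapped and the log2 difference was -0.02. Most of the sum came from Eif2s2 (beta) at 473, 460, 590 and 524 CPM (log2 fold change -0.22, edgeR adjusted p = 0.869), while Eif2s1 (alpha) stood at 93.1, 85.9, 88.6 and 121 CPM. Gamma is encoded by a pair of genes, Eif2s3x on the X (chrX:94188707-94212862) and Eif2s3y on the Y (chrY:1010543-1028847). Together they gave 128, 116, 114 and 122 CPM, close to equal between libraries.

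The libraries held cells with Y-linked transcripts, and Eif2s3y was higher in those. Other Y-linked transcripts (Ddx3y, Uty, Kdm5d or Usp9y) were found in 29, 27, 34 and 26 cells, 65.9%, 56.3%, 70.8% and 54.2%, and Xist, made from an inactive X, in 22, 38, 33 and 36 cells. These counts exceed the number of cells in every library, so some cells held both. Eif2s3y stood at 138, 111, 93.7 and 80.3 CPM in cells with a Y-linked transcript and at 9.59, 15.6, 3.39 and 18.9 CPM in the rest, and the difference goes the same way in all 4 libraries. Only 2.52% of the 25-base words at the end of Eif2s3y are shared with other transcripts, so its reads can be told from those of Eif2s3x. Eif2s3x stood at 42.4, 35.5, 35.5 and 62.1 CPM in the first group and at 12.8, 46.7, 44.0 and 63.9 CPM in the rest. The genotype log2 fold change was -0.43 for Eif2s3x and 0.37 for Eif2s3y, and neither passed the test.

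The eIF2B exchange factor was sparse, at 209, 158, 177 and 199 CPM for 5 subunits, with overlap. Its members had fold changes in both directions: Eif2b5, the catalytic subunit, stood at 31.6, 59.9, 11.0 and 36.6 CPM (log2 fold change 0.98, from 0.35 without WT replicate 1 to 2.08 without WT replicate 2). Eif2b3 and Eif2b4 had log2 fold changes of -1.15 and -1.09. Eif2b2 stood at 91.0, 32.8, 42.1 and 42.7 CPM, so 1 Mat KO library carried its difference. None of the 5 passed.

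The eIF4 group, which holds cap-binding proteins, scaffolds and helicases, differed little, at 2025, 2037, 2053 and 2154 CPM, 0.966 times WT. Both Mat KO libraries lay below both WT libraries, but the genotypes overlapped with thinned cells and without lineage-marked cells. The log2 difference of the group was -0.05, and above 0 at 0.07 with thinned cells and 0.02 without lineage-marked cells. Eif4g2, a cap-independent relative of eIF4G, was its most abundant gene at 543, 564, 563 and 579 CPM. Eif4g1 stood at 154, 180, 166 and 183 CPM, with overlap. Eif4g3, the other full-length scaffold, stood at 180, 113, 110 and 98.0 CPM, highest in Mat KO replicate 1 (log2 fold change 0.53, SE 0.34, edgeR adjusted p = 0.757). Without that library its log2 fold change was 0.16. The helicases Eif4a1 and Eif4a2 stood at 221, 329, 294 and 271 CPM and at 190, 110, 183 and 144 CPM, a ratio of 1.16, 3, 1.61 and 1.88, with the extremes both in Mat KO.

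Eif4e, the cap-binding protein, was scarce at 54.2, 13.0, 63.5 and 68.2 CPM, from 103, 23, 202 and 222 UMIs. Its low value came from Mat KO replicate 2, where 11 of 48 cells held a UMI. The log2 fold change was -0.94 (SE 0.61, edgeR adjusted p = 0.757), and -0.27 without that library. At equal depth 36.8% (95% exact binomial interval 21.8% to 54.0%), 17.1% (7.15% to 32.1%), 32.6% (19.5% to 48.0%) and 34.1% (20.5% to 49.9%) of cells held a UMI, so Mat KO replicate 1 was not below WT. The cap-binding relatives Eif4e2 and Eif4e3 stood at 134, 107, 111 and 120 CPM and at 56.8, 43.0, 80.7 and 33.5 CPM, with overlap in both.

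The eIF4E-binding proteins summed to 187, 246, 248 and 259 CPM with Eif4enif1 included, 0.854 times WT without overlap, although Mat KO replicate 2 was next to the WT values. With thinned cells the genotypes overlapped. Of the 4 genes, 3 had a fold change below 0, and none passed the test. Eif4ebp1 stood at 89.5, 98.4, 94.2 and 123 CPM (log2 fold change -0.18, SE 0.35, edgeR adjusted p = 0.949) with overlap. Eif4ebp2 stood at 34.2, 36.2, 72.6 and 43.3 CPM (-0.69, SE 0.49, adjusted p = 0.786), lower in both Mat KO libraries, and its log2 fold change was -0.12 with thinned cells. Eif4ebp3 stood at 32.1, 54.8, 19.2 and 38.7 CPM (0.62, SE 0.59, adjusted p = 0.857), with overlap. That value was 0.054 without lineage-marked cells, 0.080 with equal cell weights, and 0.16 (without Mat KO replicate 2) to 1.21 (without WT replicate 2) when 1 library was left out. For Eif4ebp3, all 25-base words at its end are shared with another annotated transcript, so its count is uncertain. Eif4enif1, an eIF4E transporter that also binds eIF4E, stood at 31.6, 56.5, 62.5 and 54.1 CPM, with overlap and a log2 fold change of -0.37. The 3 Eif4ebp genes had 2.87, 14.6, 2.93 and 3 UMIs per Eif4e UMI. That ratio was close in 3 libraries and high in Mat KO replicate 2, where Eif4e had 23 UMIs. Phosphorylation, which sets the activity of these proteins, was not measured.

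Among the remaining factors, Eif1, which guards start codon choice, stood at 1346, 1178, 1250 and 1216 CPM (log2 fold change 0.06). Eif1ad, an eIF1A-like protein, stood at 82.6, 45.8, 32.0 and 52.2 CPM (0.63), with overlap. Eif1b, the paralog of Eif1, was lower in both Mat KO libraries without passing the test (log2 fold change -0.76, edgeR adjusted p = 0.691). Eif5a, which helps ribosomes through proline-rich stretches, stood at 708, 568, 756 and 1053 CPM (log2 fold change -0.48, SE 0.24, edgeR adjusted p = 0.689), lower in both Mat KO libraries. Without WT replicate 2, the highest library, it was -0.22. Eif5, the GTPase-activating protein for eIF2, stood at 456, 496, 515 and 496 CPM, with a log2 fold change of -0.05. It lies at chr12:111538016-111546752, 1966 kb from Meg3 (Gtl2), the nearest of the factors on that chromosome to the imprinted locus. Eif5b, the subunit joining GTPase, stood at 455, 364, 310 and 380 CPM (0.28), with overlap. Eif6, which keeps the large ribosomal subunit apart from the small, stood at 106, 70.1, 109 and 130 CPM (-0.41), and the value nearest WT was Mat KO replicate 1. Pabpc1 stood at 1629, 1777, 1858 and 2109 CPM (-0.19), and 0.01 with thinned cells. Pabpc4 stood at 83.1, 58.8, 95.8 and 137 CPM (-0.69, SE 0.38), with 68.7% of its 25-base words shared, so its count is uncertain too.

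The 4 lists of genes around these factors gave no call between genotypes in edgeR (background 0.075% higher and 0% lower). Over all genes, 50.6% of fold changes were below 0. The genes named are the 3 of smallest p in each list, which need not be those of largest change. In the integrated stress response list, 8 of 12 tested genes were above 0 and 4 below. That list holds eIF2 kinases, the phosphatase subunits that oppose them and other genes of the response, such as Atf4, Trib3 and Asns. Log2 fold changes were 2.66 for Trib3 (SE 0.96), -1.09 for Asns (SE 0.72) and 0.60 for Eif2ak2 (SE 0.44). Trib3 was low, at 32.1, 16.4, 2.51 and 5.22 CPM. In the mTORC1 and MNK list 9 of 23 were above 0 and 14 below (Rptor 1.41, SE 0.63, Ddit4 1.35, SE 0.61, Mknk2 0.42, SE 0.32). Of the initiation partners, 9 of 21 were above 0 and 12 below (Dhx29 -2.09, SE 0.78, Ncbp1 -1.11, SE 0.42, Mcts1 -1.09, SE 0.47). Dhx29 was low too, at 5.26, 11.3, 26.4 and 46.1 CPM. Of the elongation and termination partners, 5 of 15 were above 0 and 10 below (Dph5 -1.46, SE 0.83, Dph6 -1.01, SE 0.53, Abce1 -0.71, SE 0.33). The list medians were 0.26, -0.07, -0.14 and -0.12 against -0.01 over all genes. The smallest edgeR adjusted p in each list was 0.565, 0.629, 0.572 and 0.654.

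Within libraries, 1 factor rose in cycling cells. In each library the 25% of cells with the highest share of cell cycle UMIs were summed and compared with the 50% with the lowest, in a fit with the library as a block over 8105 genes. Eif1ax, the X-linked gene for eIF1A at chrX:159372178-159389928, rose from 22.9 to 112, from 94.8 to 252, from 54.4 to 159 and from 86.6 to 266 CPM, higher in 4 of 4 libraries. The call was lost without cells rich in B-lymphoid transcripts and after thinning, as given below. Its log2 fold change was 1.66 (SE 0.37, edgeR adjusted p = 0.00594). It was the only one of 55 tested factors called higher (1 of 55, background 4.82%), and 0 were called lower (background 2.67%). At an unadjusted p under 0.05, 5 were higher (background 10.7%) and 2 lower (background 9.72%), and 22 of 55 fold changes were below 0 (background 52.4%). By the same adjusted threshold, DESeq2 called 1 of 56 higher (Eif1ax, background 5.75%) and 1 lower (Eif4e3, background 4.53%). Its autosomal paralog Eif1a had a log2 fold change of -0.39 (SE 0.42).

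**Figure D5:**
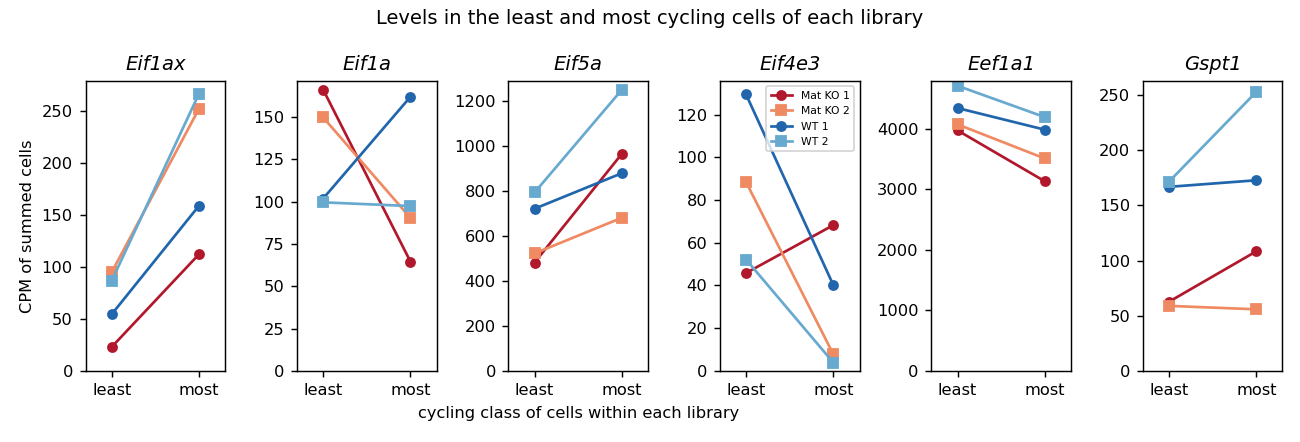
Level (CPM, linear axis) of 6 factors in the least and the most cycling cells of each library, with a line joining the cells of 1 library. Eif1ax is higher in the most cycling cells of all 4 libraries, and Eef1a1 is lower in all 4.

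The most cycling cells also differed in cell type and depth. Of 13 tested B-lymphoid markers, 11 were called higher there and 2 lower. Of 26 HSC markers, 0 were called higher and 14 lower. Over all genes, 4.82% were called higher and 2.67% lower. The median share of cell cycle UMIs was 2.80%, 0.540%, 2.55% and 2.37% in the most cycling cells and 0.384%, 0.305%, 0.335% and 0.385% in the least, so the contrast was smallest in Mat KO replicate 2. The classes are ranks within a library. The most cycling cells of Mat KO replicate 2 began at a share of 0.456%, while the least cycling cells of WT replicate 2 reached 0.693%. Eif1ax was called higher when each library was left out in turn. Median UMIs per cell were 61245, 33147, 81644 and 73374 against 30766, 22938, 36677 and 45943. With cells under 0.1% of UMIs in the B-lymphoid list only, the log2 fold change of Eif1ax was 1.14 (edgeR adjusted p = 0.408) and with thinned cells it was 1.17 (adjusted p = 0.0829), so the call was lost in both. In cells at or above that limit, 10, 4, 5 and 3 in number, Eif1ax stood at 108, 321, 311 and 263 CPM, against 56.0, 89.6, 61.3 and 137 CPM in the others. Eif1a went the other way in all 4 libraries, at 87.9, 59.7, 85.7 and 96.6 CPM against 139, 164, 142 and 102 CPM. The difference of the paralogs between these cells was not tested.

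The 3 factors next after Eif1ax by edgeR adjusted p did not pass. Factors with an unadjusted p under 0.05 were no more frequent than among all genes, as given above. In cells under 0.1% of UMIs in the B-lymphoid list, the smallest edgeR adjusted p of any factor was 0.20. The values of Eif5a and Eef1a1 in those cells and with thinned cells are not reported here. Eif5a had a log2 fold change of 0.54 (SE 0.19, edgeR adjusted p = 0.0951) and was higher in the most cycling cells of every library. Eif4e3 stood at 45.8 and 68.2 CPM in the least and most cycling cells of Mat KO replicate 1, at 88.4 and 7.69 CPM in replicate 2, at 129 and 40.1 CPM in WT replicate 1 and at 52.1 and 3.82 CPM in replicate 2. It was lower in 3 of 4 libraries (log2 fold change -2.02, SE 0.72, edgeR adjusted p = 0.0979). Eef1a1 was lower in every library, with a log2 fold change of -0.25 (SE 0.10, edgeR adjusted p = 0.120). In the partner lists, 1 of 11 tested stress response genes was called lower and 0 higher (background 2.67% and 4.82%). The other lists gave 0 calls among 21, 20 and 12 tested genes. The gene called was Ppp1r15a, the stress-induced subunit that directs dephosphorylation of eIF2 alpha. It fell by 1.52 on the log2 scale (edgeR adjusted p = 0.00120). Its value without cells rich in B-lymphoid transcripts or after thinning is not reported here. No factor differed between genotypes in its cycling difference in edgeR's interaction test (0 of 56, background 0.141%, smallest adjusted p 0.858).

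Lineage-marked cells were compared with the other cells of the same library in the same way, over 8052 genes. The factors summed to 15238, 14394, 15164 and 23557 CPM in lineage-marked cells and to 19889, 19362, 21338 and 21923 CPM in the rest, lower in 3 of 4 libraries and higher in WT replicate 2, whose lineage-marked cells were in part erythroid. edgeR called 0 of 55 factors higher (background 1.38%) and 0 lower (background 0.994%), and DESeq2 called 0 (background 2.61% higher and 2.05% lower). At an unadjusted p under 0.05, 3 were lower (Eef1g -0.84, Eif3d -1.46 and Eif1b -1.49 on the log2 scale, background 8.49%) and 0 higher (background 3.81%), and 37 of 55 fold changes were below 0 (background 64.8%). The median log2 fold change of the factors was -0.19 against -0.37 over all genes. In the mTORC1 and MNK list, 1 of 21 tested genes was called higher and 0 lower (background 1.38% and 0.994%). The stress response list and the 2 lists of partners gave 0 calls among 11, 20 and 12 tested genes. The gene called was Lamtor4, a subunit of the Ragulator complex that anchors mTORC1 at lysosomes. It rose by 1.71 on the log2 scale (edgeR adjusted p = 0.0371). Its value in the alternative settings is not reported here. No factor passed the interaction of this difference with genotype (0 factors, background 0.0102%).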

How the data were processed

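The deposited files hold counts of unique molecular identifiers (UMIs) per gene and cell barcode, which the authors made from oligo-dT primed cDNA of single cells, per the labels' protocols. TopHat2 2.0.12, HTSeq and mm10 are listed in the submitters' processing notes, without the role of each. How reads that match several genes were handled is not stated there. Spike-in rows (95) stayed out of totals.

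Cells with at least 1000 genes were summed per library, since cells are not replicates. CPM is UMIs per 1000000 UMIs of that sum. Sums were fitted with edgeR 4.0.16 (filterByExpr, TMM factors, quasi-likelihood test, Benjamini-Hochberg adjustment over all genes tested, calls at 0.05) in R 4.3.3. DESeq2 1.42.0 and limma 3.58.1 served as alternatives, the latter for equal cell weights. The cycling and lineage fits used 2 sums per library with the library as a block. Thinning drew 8877 UMIs per cell, the 10th percentile, with a fixed seed, and left out 19 of 188 cells. No doublet caller was run, since cells were picked singly per the labels' protocols. Whether barcodes with both Xist and a Y-linked transcript held RNA of more than 1 cell was not tested. The fits were run on simulated data with changes larger than most described here, so that run does not measure power for these.

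Members, lists and tests were chosen with earlier results of these data known. Factors named with values were the 6 of smallest p in each direction between genotypes, those called in the other fits, the most abundant of each complex, the eIF4E-binding proteins, the eIF2 gamma genes and the paralog pairs, and 3 genes of smallest p of each partner list. Eif1b, Eif2b3, Eif2b4, Eif2s1, Eif3a, Eif3d, Eif3f, Eif3l, Eif5, Eef1d and Eef1g were added after their values were seen. Alternatives are given in the closing section.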

Additional observations from a re-analysis of the deposited data

How the results depend on the processing

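The count of 0 translation factors called between genotypes held under all 14 alternatives, while calls over all genes went from 8 higher and 0 lower to 91 and 18 (DESeq2), 119 and 30 (no filter), 3 and 0 (thinned cells), 2 and 0 (equal cell weights), 0 and 0 (leading cell left out), 5 and 0 (at least 2000 genes), 8 and 1 (without lineage-marked cells) and 16 to 100 higher and 1 to 23 lower without 1 library. With the replicate block, all-gene calls were 90 higher and 19 lower, and 0 factors were called, 41 of 56 below 0 with a median of -0.20. The replicate numbers pair nothing in the labels, and deviations of same-numbered libraries correlated at -0.017. A library left alone in its genotype by leaving out the other was assumed to vary like the other genotype.

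Factors with both Mat KO libraries lower numbered 14 with thinned cells (20.7% of all genes), and those with both higher 5 with thinned cells (17.7% of all genes), 8 without lineage-marked cells (17%), 2 without each gene's leading cell (17%) and 8 with equal cell weights (16.6%). Log2 differences of summed levels were, with equal cell weights, -0.060 (eIF1 and eIF1A), -0.21 (eIF3) and -0.78 (eIF6). With thinned cells they were -0.021 (eIF2), -0.17 (eIF3), 0.069 (eIF4), -0.23 (eEF1), 0.058 (eEF2) and -0.032 (poly(A)-binding). Without lineage-marked cells they were 0.10 (eIF1 and eIF1A), -0.096 (eIF2), -0.20 (eIF3), 0.021 (eIF4) and -0.22 (eEF1). Leaving out 1 library gave -0.33 to -0.23 for eIF3, -0.085 to -0.015 for eIF4, -0.44 to -0.044 for the eIF4E-binding proteins and -0.77 to -0.17 for eIF6.

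In cycling cells, 0 of 41 factors were higher with thinned cells (174 of 2565 genes) and 0 of 55 in cells under 0.1% of B-lymphoid UMIs (111 of 7506 genes), an alternative chosen after seeing the data. Lower calls were 1 with DESeq2, 1 without lineage-marked cells and 0 to 1 without 1 library, each time Eif4e3 (without Mat KO replicate 1). In lineage-marked cells, 1 factor was lower at a limit of 2% (Eef1g) and 0 to 1 without 1 library (Eif3d, without WT replicate 2).

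Of the 56 genotype log2 fold changes, none of which passed the test, 12 changed sign with thinned cells and 7 without lineage-marked cells. Of the factors named by the rule, the values after a change of sign were as follows. With thinned cells they were 0.029 (Eif1ax), 0.095 (Eif4g2), 0.0089 (Pabpc1), -0.028 (Etf1), -0.15 (Eif1a) and 0.0058 (Eif4g1). Without lineage-marked cells they were 0.048 (Eif1ax), 0.097 (Eif4g2) and 0.17 (Eif4g1). With equal cell weights they were -0.010 (Eif2b2), -0.064 (Eif1) and 0.068 (Eif4g2). Without each gene's leading cell they were 0.11 (Eif4g2), 0.025 (Eif4a1) and 0.069 (Eif4g1). Eif4g2 was 0.0026 and Eif4a1 0.012 with RLE size factors, and Eif4a1 was 0.0086 with DESeq2 and 0.0014 in cells with at least 2000 genes. Leaving out 1 library gave -0.33 to 1.11 for Eif2b2, -0.81 to 0.14 for Eif1ax, -0.076 to 0.082 for Eef2, -0.026 to 0.14 for Eif1, -0.064 to 0.022 for Eif4g2, -0.36 to 0.023 for Eif4ebp1, -0.35 to 0.26 for Eif4a1, -0.53 to 0.23 for Eif4a2, -0.18 to 0.082 for Eif4g1, -0.067 to 0.22 for Eif4e2 and -0.67 to 0.59 for Eif4e3. Where thinning or leaving out libraries lowered the UMIs, fewer genes were tested or fewer samples entered, and other causes of these changes were not tested. Depth limits the 14 detected factors with means under 60 CPM most, among them Eif5a2, Eef1e1, Eif4e, Eif4ebp2, Eif4ebp3 and all eIF2B subunits.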
